A study of Mus musculus with 2 samples.

Results

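Syndecans are transmembrane proteins that carry heparan sulfate chains on the cell surface, and 4 of them, Sdc1 to Sdc4, were examined here together with 6 enzymes that build and sulfate those chains, Ext1, Ext2, Ndst1, Ndst2, Hs2st1 and Hs6st1. Sdc3 was picked because its signal was far higher on one array than on the other, and the other genes were taken as its family. Of these 10 genes, 9 had probe sets with 1 gene symbol in the platform annotation, out of 18161 genes in all. Ndst1 was not analysed here. The 9 genes had 24 probe sets, of which 17 lay above a signal floor on both arrays and 7 lay below it on both.

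The values came from RAW264.7 cells, a mouse macrophage-like line, that stably expressed murine LXRα after chemical transfection. LXRα is a nuclear receptor that responds to oxidised sterols and binds DNA together with a retinoid X receptor (RXR). One culture received the synthetic LXR agonist GW3965 (1 µM) together with the RXR agonist LG268 (100 nM), the other received the solvent DMSO, and both were kept for 24 h. The introduced receptor was present in both, and whether the cells were 1 clone or a pool is not stated in the labels. There was 1 Affymetrix mouse array per condition, so no test was possible, no value has a replicate error, and all ratios describe these 2 arrays. The effects of GW3965 and LG268 cannot be told apart.

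Heparan sulfate is built in the Golgi on core proteins such as the syndecans. A complex of EXT1 and EXT2 lengthens the chain, NDST enzymes replace acetyl groups by sulfate, and further sulfotransferases add sulfate at the 2-O and 6-O positions. The finished chains bind growth factors, chemokines and lipoproteins, and macrophages carry syndecans on their surface. Sdc1 is best known from epithelia and plasma cells, Sdc2 from mesenchymal cells, Sdc3 from nerve tissue and Sdc4 from focal adhesions.

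Expression is given as MAS5 signal, an intensity in arbitrary units that is scaled to the same trimmed mean on both arrays. The floor was 276.4, the median of all probe sets that are not controls. All 8 macrophage markers examined were above it, with a summed signal of 580147 on the ligand array and 523627 on the DMSO array. One of them, Mpeg1, a pore-forming protein, was 2.03-fold higher with the ligands (45001 with the ligands and 22120.4 with DMSO). None of 6 fibroblast markers and none of 5 epithelial markers had a brightest probe set above it, and their sums were at most 582 on the ligand array and 821 on the DMSO array. Of 5 B and plasma cell markers, Tnfrsf17 was above the floor on the DMSO array alone (163 with the ligands and 440 with DMSO), and the list summed to 407 with the ligands and 1138 with DMSO. Of 4 neural and Schwann cell markers, Mbp was above it (10164 with the ligands and 13181 with DMSO), while Tubb3, Map2 and Snap25 were below it on both arrays. The part of these cell types in the results was not tested.

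The one large difference in the family was Sdc3, whose signal was higher with the ligands in all 3 of its probe sets. Probe set 1450027_at read 21047 on the ligand array and 3577 on the DMSO array, 5.88-fold higher and a log2 ratio of 2.56. Probe set 1436482_a_at read 3727 with the ligands and 774 with DMSO, a log2 ratio of 2.27. The dimmest, 1420853_at, read 1901 with the ligands and 626 with DMSO, which is 3.03-fold higher and a log2 ratio of 1.60. An error could be estimated only from how far the 2 brightest probe sets of a gene differed. Over 4868 genes it gave an SD of 0.28 for the log2 ratio of a probe set. It was 0.37 among genes with a mean signal up to 2265, 0.26 from there to 5821, and 0.18 above. That SD is a disagreement between different probe sets inside the arrays, not a repeat measurement, and says nothing of how cultures vary. The platform annotation ties 1450027_at and 1420853_at to the same source sequence, and probe sets of a gene read the same RNA, so they are not replicates of the treatment. Because Sdc3 was chosen for its ratio, these values are a description. Ranked by the log2 ratio of the brightest probe set, Sdc3 stood in place 13 of 9762 genes above the floor on both arrays. Next above it were AB124611 at 2.66 and Tifab at 2.72, and next below it were Anxa3 at 2.31 and Scd1 at 2.20. In such bulk samples a change in the share of cells that express a gene and a change in RNA per cell cannot be told apart.

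The stretches just upstream of the transcript starts of Sdc3, Sdc1 and Sdc4 are shown because these 3 syndecans were above the floor and differed in their ratios, and because the receptors addressed by the ligands bind DNA. They are 250 bases each from RefSeq's GRCm38.p6, read 5′ to 3′ on the strand of the gene. The windows are chr4:130792287-130792536 on the plus strand, chr12:8771146-8771395 on the plus strand and chr2:164443189-164443438 on the minus strand. Promoters were listed for 7 of the members. Capitals mark GGGCGG, the GC box, and AGGTCA, the hexamer that nuclear receptors such as LXR and RXR recognise, each on either strand.
Sdc3: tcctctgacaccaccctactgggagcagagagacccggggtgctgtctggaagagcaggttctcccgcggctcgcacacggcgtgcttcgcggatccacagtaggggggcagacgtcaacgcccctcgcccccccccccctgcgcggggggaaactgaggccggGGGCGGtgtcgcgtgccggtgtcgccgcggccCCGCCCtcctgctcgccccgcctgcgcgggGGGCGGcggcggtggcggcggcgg
Sdc1: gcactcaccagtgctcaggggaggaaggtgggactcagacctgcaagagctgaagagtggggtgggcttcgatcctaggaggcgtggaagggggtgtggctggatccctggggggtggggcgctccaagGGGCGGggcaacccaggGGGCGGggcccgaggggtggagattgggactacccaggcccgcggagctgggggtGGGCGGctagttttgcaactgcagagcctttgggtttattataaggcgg
Sdc4: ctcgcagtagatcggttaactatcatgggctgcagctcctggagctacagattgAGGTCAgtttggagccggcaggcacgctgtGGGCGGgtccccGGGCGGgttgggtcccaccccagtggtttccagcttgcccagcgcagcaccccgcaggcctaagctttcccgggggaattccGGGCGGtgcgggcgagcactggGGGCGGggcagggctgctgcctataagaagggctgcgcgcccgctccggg

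The Sdc3 window had a GC content of 76.4% and held 3 GC boxes and no AGGTCA. In the Sdc1 window, with a GC content of 66.0%, there were also 3 GC boxes and no AGGTCA. Sdc4, with a GC content of 68%, had 4 GC boxes and 1 AGGTCA, which begins 196 bases before the start. Of the other listed members, Hs6st1 had 6 GC boxes, Ndst2 3, Hs2st1 1 and Ext2 0, and none had an AGGTCA. The median GC content of all promoter windows was 52.4%. It was lower than in Sdc3 in 97.0% of windows, than in Sdc1 in 84.5% and than in Sdc4 in 87.8%. Among 32851 promoter windows of the same length, 32.7% held a GC box and 14.0% an AGGTCA on either strand. The direct repeat with a spacer of 4 bases bound by LXR and RXR, searched as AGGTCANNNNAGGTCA on both strands, was in 0.0152% of all windows. With the third base of each hexamer free, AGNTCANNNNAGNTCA, it was in 0.103%. Neither form was in the windows of the 7 members. Each repeat of the first form contains the hexamer. A match is a description of the letters and not of binding, and the lack of one says only that these letters are not in the window.

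**Figure D1:**
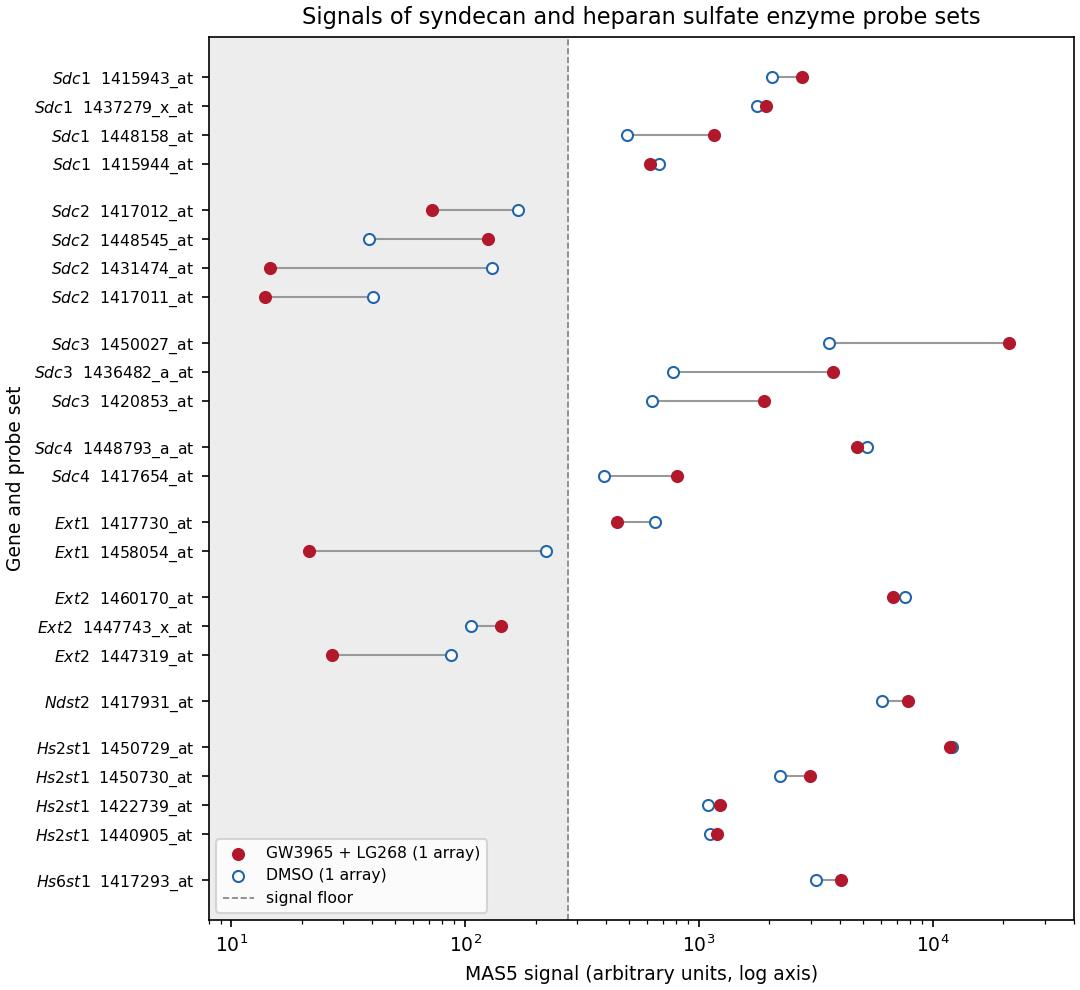
MAS5 signal (arbitrary units, log axis) of all 24 probe sets of the members. Filled points are the array of cells given GW3965 and LG268, open points the DMSO array, 1 array each, and the grey area lies below the floor of 276.4. The 3 probe sets of Sdc3 have the widest gaps among those above the floor, and all 4 of Sdc2 lie below it. Probe sets differ in their response to RNA, so signals are comparable along a row only.

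The other syndecans did not share one pattern. Sdc1 had 4 probe sets above the floor. Its brightest, 1415943_at, read 2749 with the ligands and 2049 with DMSO, a log2 ratio of 0.42. Probe set 1448158_at read 1164 with the ligands and 491 with DMSO, 2.37-fold higher, while 1415944_at read 615 with the ligands and 674 with DMSO, a log2 ratio of -0.13. The fourth, 1437279_x_at, whose type may detect more than 1 transcript, read 1939.9 with the ligands and 1774 with DMSO. Thus 3 of the 4 were higher with the ligands, 1 of them by over 2-fold, and the direction was not the same in all. The range of 1.38 on the log2 scale was reached or passed by 4.62% of the 498 genes with as many such probe sets, whose median range was 0.56.

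Sdc4 had a pair of probe sets that differed in direction. The brighter, 1448793_a_at, read 4757 with the ligands and 5217 with DMSO, a log2 ratio of -0.13. The dimmer, 1417654_at, read 803 with the ligands and 392 with DMSO, 2.05-fold higher and a log2 ratio of 1.03. No single value for Sdc4 therefore stands for both. Their gap of 1.17 was reached or passed by 1.94% of the 2728 genes with 2 such probe sets, whose median gap was 0.25. For Sdc3 the range over 3 probe sets was 0.96, a size reached or passed by 10.1% of 1306 genes.

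Sdc2 was below the floor on both arrays in all 4 of its probe sets, so no ratio is given. On the ligand array these read 72.0, 126, 14.6 and 13.9, and on the DMSO array 168, 38.7, 129.8 and 40.2, in the same order of probe sets. Values below the floor are given without a direction.

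**Figure D2:**
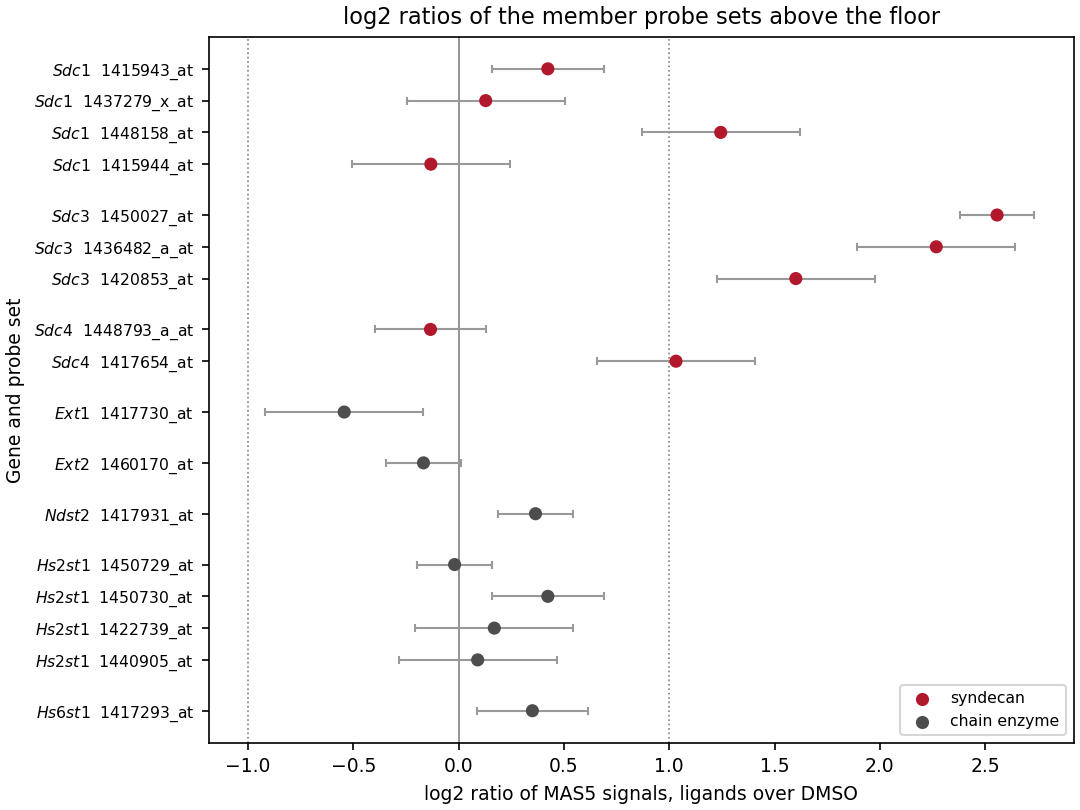
log2 ratio of MAS5 signals, ligands over DMSO, for the 17 member probe sets that were above the floor. Bars show 1 SD of the log2 ratio, estimated from the disagreement of probe sets of one gene at similar signal (0.37, 0.26 or 0.18). Dotted lines mark 2-fold. Sdc3 lies between 1.60 and 2.56, and the chain enzymes lie between -0.54 and 0.42.

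Among the enzymes of chain synthesis and sulfation, no probe set above the floor was 1.5-fold apart. Of all measured genes, 88.9% lay within 1.5-fold by their brightest probe set. Ext1, one of the partners of the polymerase, read 445 with the ligands and 648 with DMSO at 1417730_at, a log2 ratio of -0.54 at a signal near the floor. Its other probe set was below the floor on both arrays, at 21.4 with the ligands and 221 with DMSO. Ext2, the other partner, read 6765 with the ligands and 7592 with DMSO at 1460170_at, a log2 ratio of -0.17. The remaining probe sets of Ext2 were below the floor, at 142 and 26.9 with the ligands and at 105 and 86.7 with DMSO. Both polymerase genes thus had a negative log2 ratio in their only readable probe set, by less than 1.5-fold. For Ext2 it was smaller than the probe set SD of 0.18 at such signals, and for Ext1 that SD was 0.37. A positive log2 ratio was found in 46.2% of all measured genes.

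The 3 sulfotransferase genes among the members that could be read were also within 1.5-fold, as were 88.9% of all measured genes. Ndst1 was not analysed. Ndst2, which deacetylates and sulfates glucosamine, read 7794 with the ligands and 6051 with DMSO, a log2 ratio of 0.37. Hs6st1, which adds sulfate at the 6-O position, read 4028 with the ligands and 3159 with DMSO, a log2 ratio of 0.35. Each of these genes had 1 probe set, so neither ratio has a second reading. Hs2st1, which adds sulfate at the 2-O position of uronic acid, had 4 readable probe sets. The brightest, 1450729_at, read 11877 with the ligands and 12032 with DMSO, a log2 ratio of -0.02. The next, 1450730_at, read 2976 with the ligands and 2219 with DMSO, a log2 ratio of 0.42. The last pair, 1422739_at and 1440905_at, had log2 ratios of 0.17 and 0.09. That range of 0.44 was reached or passed by 67.3% of genes with as many probe sets.

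Of the 8 members with a brightest probe set above the floor, 1, Sdc3, passed 2-fold on the higher side with the ligands, and none passed it on the lower side. Across all 11068 genes measured in this way, 1.67% passed it on the higher side and 0.777% on the lower side, 2.45% together. Counting probe sets, 5 of the 17 passed 2-fold on the higher side (3 of Sdc3, 1 of Sdc1 and 1 of Sdc4), beside 1.80% of 20731 gene probe sets. No member probe set above the floor was 2-fold lower, beside 1.07%. Sdc3 entered by its ratio, so nothing is read from these shares. The median log2 ratio of the 8 members was 0.17, and it was -0.02 without Sdc3, beside -0.03 over all measured genes. The members other than Sdc3 ranged from -0.54 to 0.42, and 88.9% of all measured genes lay within 1.5-fold.

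**Figure D3:**
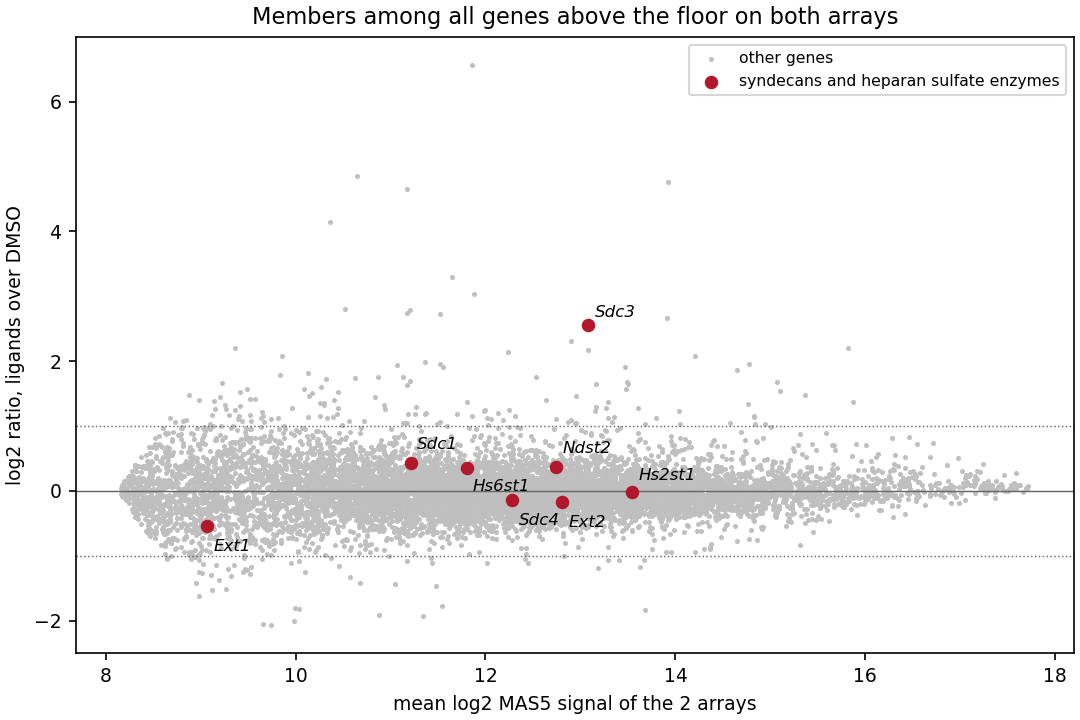
log2 ratio (ligands over DMSO) against mean log2 MAS5 signal for the 9762 genes above the floor on both arrays, each by its brightest probe set, with the 8 measured members in red. Dotted lines mark 2-fold. Sdc3 lies at 2.56, and the other 7 members lie between -0.54 and 0.42. The dimmer probe sets of Sdc1 and Sdc4 that passed 2-fold are not shown.

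The rest of the pathway was read from lists of genes grouped by role. Of 55 further genes of heparan sulfate core proteins, synthesis, editing and breakdown, 52 had probe sets and 33 were above the floor. None of the 33 passed 2-fold on the higher side, beside 1.67% of all measured genes, and 2 passed it on the lower side, beside 0.777%. Of the 33, 15 had positive and 18 negative log2 ratios, where 46.2% of all measured genes had a positive one. The median of -0.03 was the same, to 2 decimals, as that of all measured genes.

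Core proteins differed in both directions. Of 13 on the list, 6 were above the floor, 1 was at least 2-fold lower, 3 were at least 1.5-fold lower and 1 was at least 1.5-fold higher. Of all measured genes, 0.777% were at least 2-fold lower and 88.9% lay within 1.5-fold. Nrp1, a semaphorin and VEGF receptor that can carry a glycosaminoglycan chain, read 466 with the ligands and 1072 with DMSO, 2.30-fold lower, but its 4 probe sets ran from -1.20 to 0.52. Cd44, the hyaluronan receptor, some forms of which carry heparan sulfate, read 11064 with the ligands and 21297 with DMSO, and its 3 readable probe sets lay between -0.94 and -0.59. Col18a1, a basement membrane collagen, read 837 with the ligands and 1449.8 with DMSO, and its probe sets were at -0.79 and -1.40 on the log2 scale. In Cd44 and Col18a1 the readable probe sets were all lower with the ligands, whereas those of Nrp1 were split. Srgn, the proteoglycan of secretory granules, had a log2 ratio of 0.15, at 90834 with the ligands and 81721 with DMSO. The basement membrane proteoglycan Hspg2 was 1.71-fold higher (956 with the ligands and 559 with DMSO), and Agrn, agrin, had a log2 ratio of -0.56. All 6 glypicans, the core proteins held by a lipid anchor, were below the floor on both arrays.

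Of the 8 genes of precursor supply, 7 were readable and lay between -0.17 and 0.21 on the log2 scale by their brightest probe sets. The 5 probe sets of Ugp2 ran from -0.20 to 0.62, and the other probe set of Slc35d1, a nucleotide sugar transporter, was at -0.42. Papss1, which makes the sulfate donor PAPS, was at -0.17, Ugp2, which makes UDP-glucose, at 0.21 and Ugdh, which turns it into UDP-glucuronic acid, at 0.14. Among the enzymes of the linker that joins the chain to the protein, 5 of 6 were readable. B3gat3, which adds the last sugar of the linker, was 1.54-fold higher by its brightest probe set (3252 with the ligands and 2114 with DMSO), but its other probe set was at -0.55. Xylt2, which starts the linker, was at 0.46 (622 with the ligands and 453 with DMSO), and the linker kinase Fam20b was at 0.10.

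The exostosin-like genes that start or lengthen chains stayed near zero where their signal was well above the floor. Extl3 was at 0.02 (2391 with the ligands and 2357 with DMSO) and Extl2 at -0.04. Extl1, close to the floor, read 288 with the ligands and 429.7 with DMSO, a log2 ratio of -0.58. Of the 11 further chain-modifying enzymes with a probe set, 4 were readable. Hs3st2, a 3-O-sulfotransferase, was at least 2.12-fold lower, because its signal of 144 with the ligands was below the floor and that of 585 with DMSO above it. Hs3st4, another, was at least 1.16-fold higher, at 321 with the ligands and below the floor at 181 with DMSO. Glce, the epimerase that turns glucuronic into iduronic acid, had log2 ratios of -0.15 and 0.23 in its 2 readable probe sets. The remaining NDST genes of the list, Ndst3 and Ndst4, were below the floor.

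Sulf2, which removes 6-O sulfates outside the cell, was the one readable gene of the 4 that edit finished chains, at 28205 with the ligands and 28804 with DMSO, a log2 ratio of -0.03. Sulf1 and the heparanase gene Hpse were below the floor. The lysosomal enzymes that take the chains apart, 7 of them readable, were split with 3 positive and 4 negative ratios. The share of positive ratios over all measured genes was 46.2%. Naglu, which removes N-acetylglucosamine, was at 0.57 (6387 with the ligands and 4309.6 with DMSO). Hgsnat, which acetylates glucosamine, was at -0.56 (11169 with the ligands and 16472 with DMSO). Ids, the iduronate sulfatase, was at -0.44, but its 4 readable probe sets ran from -0.44 to 0.90.

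Among genes for proteins that bind the syndecan tail or cut its ectodomain, 10 of 12 were readable. None was 2-fold apart, beside 2.45% of all measured genes, while 1 passed 1.5-fold on the higher side and 1 on the lower side, where 88.9% of all genes lay within 1.5-fold. Sdcbp, syntenin, which binds the end of the tail through its PDZ domains, read 74470.3 with the ligands and 54371 with DMSO, and its 2 readable probe sets had log2 ratios of 0.45 and 0.40. Gipc1, another PDZ protein, was at 0.65 (6561 with the ligands and 4189 with DMSO). Tiam1, an activator of Rac, was at -0.77 (1296 with the ligands and 2217 with DMSO), and the kinase Fyn was at -0.57. The sheddases Adam10 and Adam17 were at -0.09 and -0.13 by their brightest probe sets, and the 3 readable probe sets of Adam10 ran from -0.09 to 0.74.

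**Figure D4:**
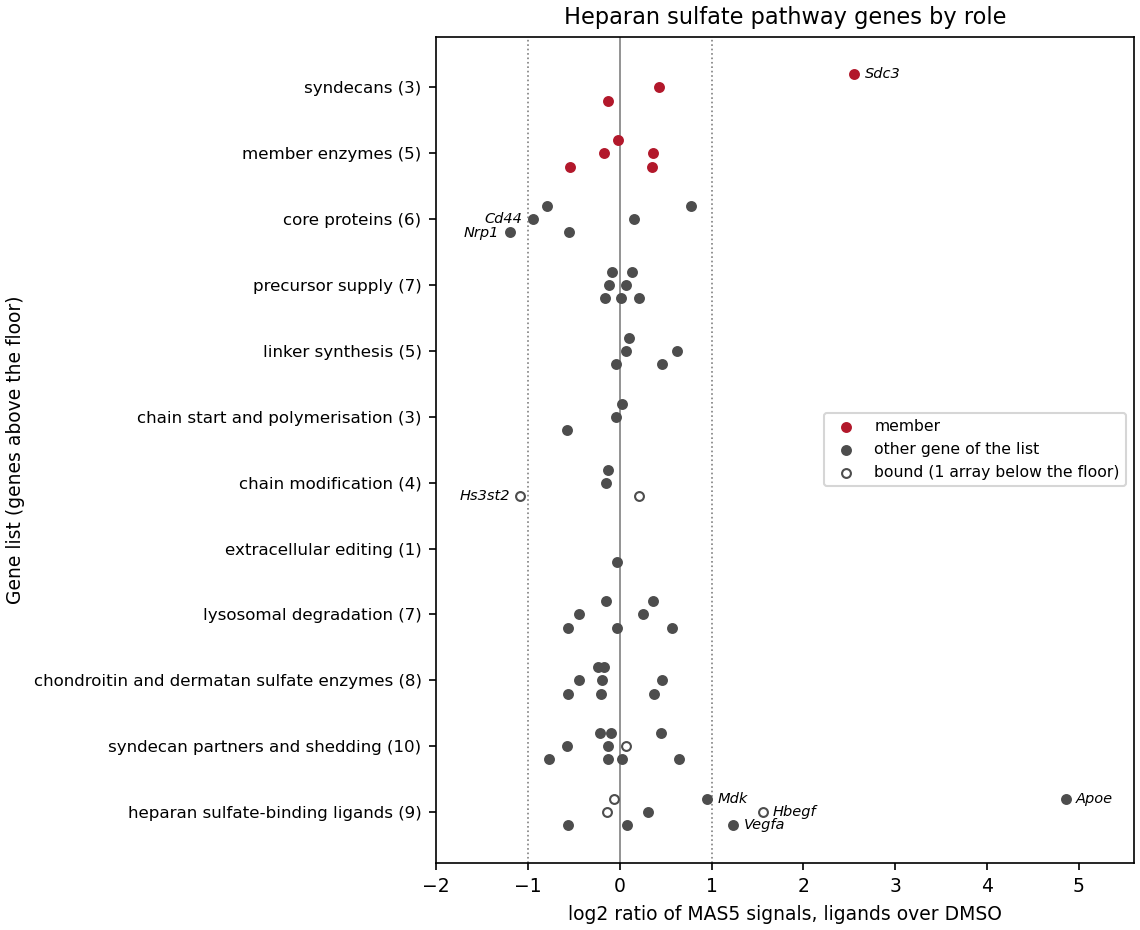
log2 ratio of MAS5 signals, ligands over DMSO, of the brightest probe set of each gene above the floor, by gene list, with the number of such genes in brackets. Members are red, open points are bounds with 1 array below the floor, the vertical offset only separates points, and dotted lines mark 2-fold. Sdc3 is the one point of the synthesis and core protein lists beyond 2-fold on the higher side. Nrp1 and Hs3st2 lie beyond it on the lower side.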

How the data were processed

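Gene expression was measured on 1 Affymetrix mouse array per condition. The deposited values are intensities on a linear scale, 1 per probe set, and MAS5 made them, per the submitters' processing notes (version not given in the sources used here). Both arrays had a 2% trimmed mean of 2500.02 and were used as deposited. MAS5 scales each array as a whole, so a ratio is relative to the array's other signals. The number of arrays limits the precision.

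Of 45101 probe sets, 34945 had 1 gene symbol in the platform annotation, 932 had several, 9160 had none and 64 were controls. Symbols were updated to GRCm38.p6 by gene identifier for 34741. The others with 1 symbol kept it, or took the current symbol where it was an older alias of 1 gene. Probe sets with several symbols or none, and the controls, were left out. Each gene was read from the probe set with the highest mean log2 signal over both arrays. Signals below the median of all probe sets other than controls were set to it, and log2 ratios were taken of ligands over DMSO. A gene was measured if that probe set was above the floor on at least 1 array, and a bound is given where 1 array was below it. The members and lists were chosen with earlier results of these data known. Named genes were the members, the up to 3 genes of each list with the largest absolute log2 ratio, Extl3, Glce, Sulf2, Srgn, Papss1, Xylt2 and Sdcbp for their role, and the 2 genes next above and below Sdc3 in log2 ratio. Other genes were named after their values were seen. The ratios were checked on simulated data. Alternatives were other floors, no floor, quantile normalization, centring, the mean over probe sets, other probe set choices and other thresholds. Python 3.11.15, numpy 2.4.6, pandas 2.3.3 and matplotlib 3.10.9 were used.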

Additional observations from a re-analysis of the deposited data

How the results depend on the processing

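Over 10 alternatives, 82 of 91 values moved by less than the probe set SD of 0.28 or, for counts, by less than 1.5 times. That share is no measure of stability, because some alternatives could not move most ratios. A lower floor, for example, cannot change a ratio of signals that were both above the main floor. A turn of direction was counted only for genes at least 2-fold apart, which among the members was Sdc3, and it did not turn. The log2 ratio of Sdc3 lay between 2.14 and 2.58 under the 8 alternatives that give a ratio and was 2.14 as the mean over its probe sets. With that mean, Sdc4 changed sign, from -0.13 to 0.45. With the floor at the 25th percentile, 2 members were at least 2-fold apart, the added one being Sdc2, which was then above the floor. Its brightest probe set read 72.0 with the ligands, just above that floor of 70.2, and 168 with DMSO. Its next, 1448545_at, read 126 with the ligands and 38.7 with DMSO, so its probe sets did not share a direction. The 2 further pathway genes at least 2-fold apart became 7 with that floor, 0 with the floor at the 75th percentile, 8 without a floor, 1 when genes had to be above the floor on both arrays, 6 at 1.5-fold and 0 at 3-fold. Ext1 was below the floor at the 75th percentile. Hs2st1, at -0.02, was at 0.17 as the mean over probe sets and at 0.003 after centring. No paired analysis was possible because each group had 1 array and no result comes from a test. Ratios of signals near the floor are the least precise, and no value here bears on variation between cultures.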

Other observations

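Proteins that bind heparan sulfate included the largest ratio among the genes examined. Of 13 genes on that list, 9 were above the floor, 3 of them passed 2-fold on the higher side and none on the lower side, against 1.67% and 0.777% of all measured genes. Apoe, an apolipoprotein that binds heparan sulfate, read 8672 with the ligands and 299 with DMSO, 29.0-fold higher. Hbegf, a heparin-binding growth factor, was at least 2.94-fold higher, at 813 with the ligands and below the floor at 248 with DMSO, and its other probe set was at 0.66. Vegfa, the angiogenic growth factor, read 6201 with the ligands and 2636 with DMSO, with its 2 probe sets at 1.23 and 0.90 on the log2 scale. Of the growth factors known to bind Sdc3 in nerve tissue, Mdk, midkine, read 1027 with the ligands and 531 with DMSO, a log2 ratio of 0.95, and Ptn, pleiotrophin, read 343 with the ligands and 507 with DMSO, a log2 ratio of -0.56. Lpl, lipoprotein lipase, which is held at cell surfaces by heparan sulfate, had log2 ratios of 0.31 and 1.06 in its 2 probe sets, the brighter at 164897 with the ligands and 132942 with DMSO. The high ratios of Apoe and Vegfa were known when the list was drawn up, so nothing is read from its share.

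Enzymes of chondroitin and dermatan sulfate, chains that some syndecans carry as well, had 8 of 16 genes above the floor, none of them 1.5-fold apart, where 88.9% of all measured genes lay within that range. Their median log2 ratio was -0.20, beside -0.03 over all measured genes. Of the 8, 2 were positive and 6 negative, where 46.2% of all measured genes were positive. Csgalnact2, which starts chondroitin chains, was at -0.56 (4685 with the ligands and 6926 with DMSO). Dsel, a dermatan sulfate epimerase, was at -0.45 (1519 with the ligands and 2072 with DMSO). Chst14, the dermatan 4-O-sulfotransferase, was at 0.46 (2433 with the ligands and 1763 with DMSO).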
